A study of Homo sapiens with 27 samples.

Results

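The response of REH cells to lnc-NKX2-3-1 GapmeR1 was compared with that of control cells by RNA sequencing. The samples were chosen by their treatment labels: 2 of the 27 samples of the series had received this GapmeR, and 5 served as controls, of which 2 (replicates 1 and 2) had medium only and 3 (replicates 1 to 3) the non-targeting GapmeR (NTC). REH is an established human line of acute lymphoblastic leukemia from B-cell precursors (BCP-ALL), and its ETV6/RUNX1 fusion gene is shared by all groups. Every oligonucleotide was added to the medium at 10 µM, with no transfection reagent, and RNA was taken after 72 hours. Where useful, GapmeR1 was set beside GapmeR2, which targets the same lncRNA (3 samples, replicates 1 to 3), and beside the 20 samples of all 7 other targeting GapmeR groups, GapmeR2 among them. All values come from 1 cell line and 1 dose, and GapmeR1 has replicates 1 and 2 only. The methods of the study place the replicates of a treatment on different days.

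A GapmeR is a short antisense DNA oligonucleotide whose ends carry locked nucleic acid (LNA) sugars, which tighten pairing. Where its central DNA pairs with an RNA, RNase H1 cuts that RNA strand. The enzyme works in the nucleus as well as in the cytoplasm, so unspliced RNA, introns included, is open to it. A long noncoding RNA (lncRNA) has no known protein product and may act on genes nearby or elsewhere. B-cell precursors build an antibody step by step. The RAG enzymes cut DNA at heavy chain segments, which are then joined. The pre-B receptor (the heavy chain with a surrogate light chain) drives division, and light chain genes are then opened and joined.

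The oligonucleotides are shown here, 5′ to 3′, because the changes described further on were sorted by how much of a gene's sequence can pair with them. Capitals mark the first 10 bases of GapmeR1 and, in its target site, the 10 bases these pair with.
GapmeR1: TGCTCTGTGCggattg
Target site of GapmeR1: caatccGCACAGAGCA
GapmeR2: ctgatttttagtagtg
NTC: aacacgtctatacgc
The target site lies in an exon of lnc-NKX2-3-1 (ENSG00000228778) on the plus strand, at chr10:99528207-99528222 of GRCh38. GapmeR2 pairs with the 16 bases just before it, at chr10:99528191-99528206.

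The 5 control libraries held 16028895 to 18846647 counts, and the GapmeR1 libraries, with 22542504 and 19969434, were deeper than all of them. The share of reads that fell on a gene was 74.0% to 75.8%, and 22042 to 23024 genes had a count. No pair of replicates was a duplicate: the chi-square per degree of freedom was 6.52 between the GapmeR1 samples, 6.76 between the medium samples and 7.48 between NTC replicates 1 and 2. NTC replicate 3 stood apart, at 13.9 and 12.7 from the other NTC samples. Of 9 defining B-lineage markers 8 reached 1 CPM (a count scaled to a library of 1000000 counts), VPREB1 being at 0, and their summed level was 5147 to 5430 CPM with GapmeR1 and 4744 to 5253 CPM in the controls. Of these 9 markers 1 was higher (RAG1) and 2 were lower (CD22, not passing without GapmeR1 replicate 2, and EBF1, not passing without replicate 1). All 5 erythroid markers were at 0. The 6 T cell markers summed to 14.7 to 14.97 CPM with GapmeR1 and 7.83 to 18.7 CPM in the controls, with CD3D, CD3G and CD2 at 0. The 7 myeloid markers summed to 166 to 199 CPM with GapmeR1 against 89.7 to 139 CPM, 2 of them were higher, and S100A8 and S100A9 were at 0. The 6 stromal and epithelial markers, 4 of them at 0, summed to 6.14 to 6.68 CPM against 7.74 to 13.5 CPM. The part of these differences in the results was not tested. In bulk RNA, fewer cells that make a transcript and less transcript per cell cannot be told apart.

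The targeted RNA, lnc-NKX2-3-1, was scarce in every library. It had 4 and 1 counts with GapmeR1, 17 and 23 with medium, and 10, 12 and 6 with NTC. These were 0.183 and 0.0518 CPM with GapmeR1, 0.914 and 1.26 CPM with medium, and 0.566, 0.754 and 0.325 CPM with NTC. Both GapmeR1 samples lay below all 5 controls, whose lowest was NTC replicate 3. The GapmeR1 mean was 15.4% of the control mean of 0.764 ± 0.354 CPM (SD, n = 5). The log2 fold change was -2.58 (SE 0.662, adjusted p = 0.0168 by the edgeR quasi-likelihood test). With the replicate number as a block it was -2.77 (adjusted p = 0.000187). A two-sided exact permutation test over the 21 ways to choose 2 of the 7 samples gave p = 0.0476, the smallest it allows. The call rested on both libraries: without GapmeR1 replicate 1 the log2 fold change of lnc-NKX2-3-1 (ENSG00000228778) was -3.71 (adjusted p = 0.065), and without replicate 2 it was -2.02 (adjusted p = 0.182). On counts regardless of strand it was -0.98 (adjusted p = 0.0731). The opposite strand, where LINC01475 overlaps the gene, gave 40 and 31 reads with GapmeR1, 35 and 49 with medium, and 42, 31 and 41 with NTC, so the groups overlapped there. GapmeR2 left 4, 3 and 0 counts, and lnc-NKX2-3-1 did not pass the test between GapmeR1 and GapmeR2 (log2 fold change 0.0012, SE 1.09, adjusted p = 1), an error too wide to show that the 2 oligonucleotides lowered it alike.

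Of the 10 genes tested within 500 kb of the lncRNA, itself included, 3 passed the test, all lower: the lncRNA, DNMBP and GOT1. Over all genes tested 10.2% were lower and 7.41% higher. NKX2-3, a homeobox transcription factor of gut and spleen development that starts 3′ of the lncRNA, was at 0.412 and 0.466 CPM with GapmeR1, 1.02 and 0.822 CPM with medium, and 0.905, 1.07 and 0.434 CPM with NTC. The groups overlapped through NTC replicate 3, and the log2 fold change of -0.93 (SE 0.398) did not pass the test (adjusted p = 0.129). It did pass with the replicate block (-1.10, adjusted p = 0.0235) and with control replicates 1 and 2 only (-1.10, adjusted p = 0.0321). DNMBP, a scaffold protein of the actin skeleton, fell by 0.50 on the log2 scale (SE 0.142, adjusted p = 0.0267), from 13.3 to 19.3 CPM in the controls to 11.6 and 10.9 CPM. Its call was lost without either GapmeR1 library and with medium only as controls. GOT1, an enzyme of amino acid metabolism, fell by 0.30 (SE 0.0947, adjusted p = 0.0468), a call that was also lost without GapmeR1 replicate 2 or any 1 of 3 controls. ABCC2, COX15, CUTC, GOT1-DT, LINC01475 and SLC25A28 did not pass, although COX15 did with the block (log2 fold change -0.25, adjusted p = 0.000677). Of the other lncRNAs that the study targeted, lnc-ASTN1-1 (ENSG00000227579) was lower (log2 fold change -0.47, adjusted p = 0.00529), a call lost without GapmeR1 replicate 2 (-0.39, adjusted p = 0.117), while lnc-RTN4R-1 (LINC02891; -0.40, adjusted p = 0.061, with the block -0.42, adjusted p = 0.000208) and lnc-TIMM21-5 (-0.10, adjusted p = 0.868) did not pass.

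Across the genome many genes changed, and the large changes were mostly losses. Of 15402 genes tested, 2713 (17.6%) changed at an adjusted p under 0.05 (edgeR), 1142 (7.41%) higher and 1571 (10.2%) lower. At least 2-fold lower were 496 (3.22%), against 70 (0.454%) at least 2-fold higher. In 2699 genes (17.5%) the change passed the test and both GapmeR1 samples lay outside the range of the 5 controls. With the replicate block the calls came to 5611 (36.4%), 2839 (18.4%) higher and 2772 (18%) lower, and kept 1139 of the 1142 higher and 1571 of the 1571 lower genes. Either GapmeR1 library mattered for the count: without replicate 1 it was 1142 and kept 364 of the higher and 752 of the lower genes, and without replicate 2 it was 1002 and kept 279 and 714. None of the 2713 genes took the opposite sign with a library left out. Far fewer genes passed between the 2 sets of controls, in a test with 5 samples that cannot show them to be alike. Between NTC and medium none of 15100 genes passed in edgeR or in DESeq2, with 670 (4.44%) at an unadjusted p under 0.05, and 231 (1.53%) passed with the replicate block. Without medium replicate 1, medium replicate 2 or NTC replicate 2 the edgeR count was 18, 4 and 1.

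**Figure D1:**
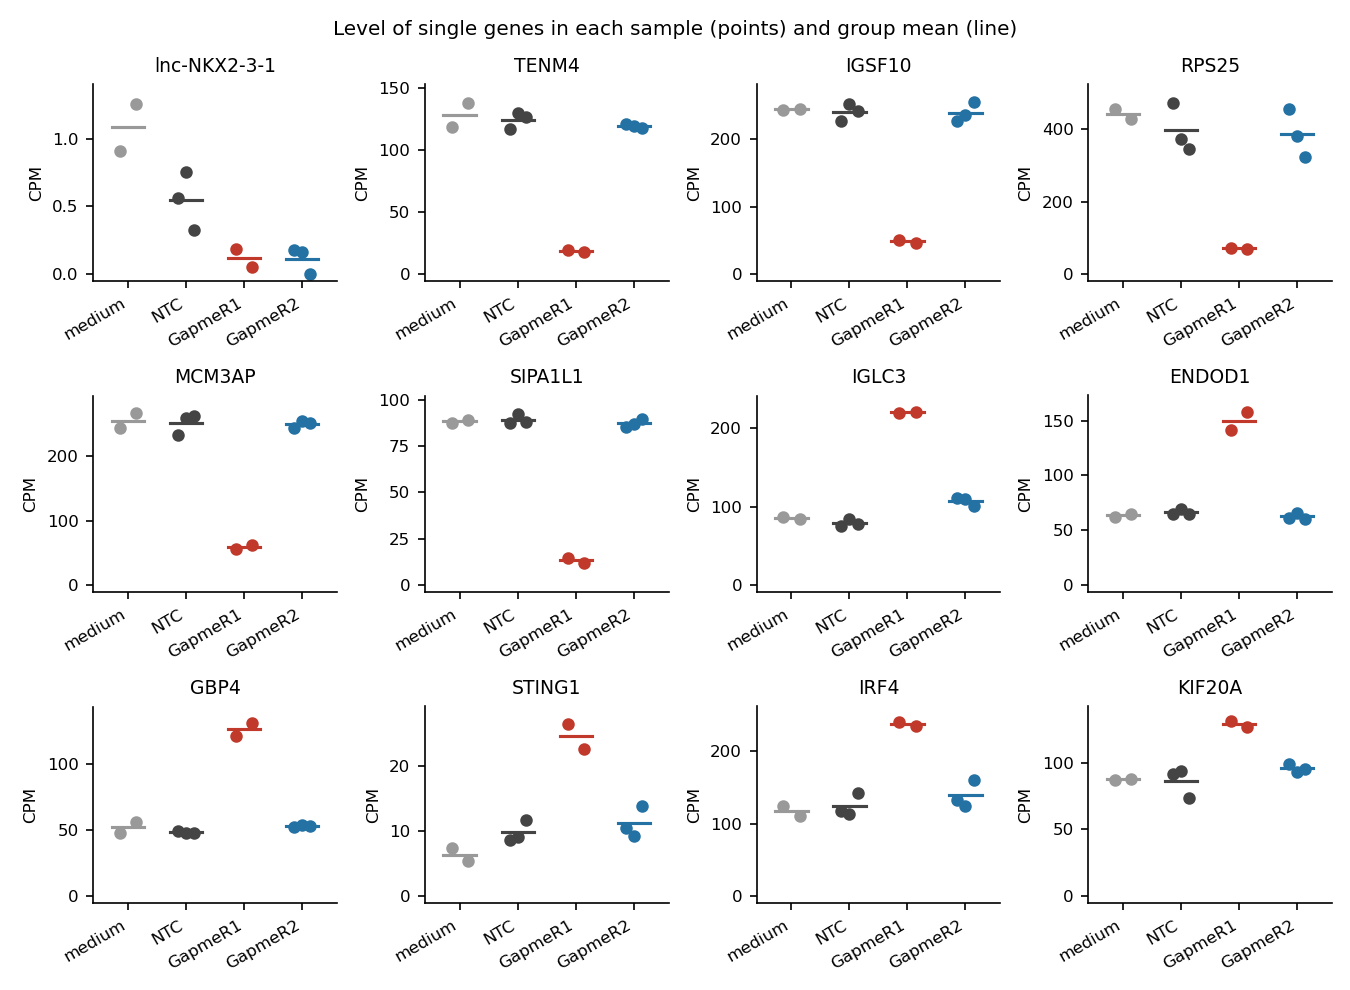
Levels of 12 genes in CPM (vertical axes, each from its own scale) in every sample of medium, NTC, lnc-NKX2-3-1 GapmeR1 and GapmeR2, where points are samples and lines are group means. In the panels of TENM4, IGSF10, RPS25, MCM3AP and SIPA1L1 the 2 GapmeR1 points lie far below all other points, and in those of IGLC3, ENDOD1, GBP4, STING1, IRF4 and KIF20A they lie above them.

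The genes that fell furthest included cell contact proteins, signalling enzymes and housekeeping genes. TENM4, a teneurin of the cell surface, was at 19.3 and 17.8 CPM with GapmeR1, 119 and 138 CPM with medium, and 117, 129.8 and 127 CPM with NTC. It was 6.75-fold lower (log2 fold change -2.75, SE 0.0977, adjusted p = 3.25e-09), and its 3 GapmeR2 samples, at 118 to 121 CPM, lay within the range of the controls. SIPA1L1, which switches off the small GTPase Rap, was at 14.7 and 12.2 CPM, against 87.5 and 89.1 CPM with medium and 87.2, 92.4 and 87.9 CPM with NTC (log2 fold change -2.71, SE 0.0948, adjusted p = 3.25e-09). SDK1, an adhesion molecule, was at 4.58 and 4.77 CPM, against 36.7 and 36.6 CPM with medium and 35.1, 35.8 and 42.1 CPM with NTC (log2 fold change -2.99, SE 0.121, adjusted p = 1.09e-08). In all 3 genes the groups were far apart and the controls close together. AGAP1, which acts on Arf GTPases in membrane traffic, fell from between 9.50 and 12.4 CPM to 1.28 and 0.725 CPM, 10.5-fold (adjusted p = 5.36e-07). PLCB1, a phospholipase C of receptor signalling, fell by 2.70 on the log2 scale (SE 0.125), and GMDS, the first enzyme of GDP-fucose synthesis, by 2.68 (SE 0.141). ADARB2, a relative of the RNA editing enzymes, fell by 2.54 (SE 0.195) and NUP43, a nuclear pore protein, by 2.66 (SE 0.122). Noncoding RNAs were among them too: LINC02334 was 6.69-fold lower and ENSG00000254350, a lncRNA on chromosome 5, 10.97-fold lower. These calls held under every alternative tried.

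Genes of ordinary size fell as well. IGSF10, a secreted immunoglobulin superfamily protein, was at 50.8 and 46.0 CPM with GapmeR1, 243 and 245 CPM with medium, and 226, 252 and 242 CPM with NTC, 4.97-fold lower (log2 fold change -2.31, SE 0.0831, adjusted p = 3.25e-09). MCM3AP, which joins transcription to mRNA export and is also known as GANP in B cells, was at 55.3 and 62.7 CPM, against 243 and 267 CPM with medium and 233, 258 and 263 CPM with NTC (log2 fold change -2.09, SE 0.0916, adjusted p = 2.4e-08). The groups did not overlap in either gene. RPS25, a protein of the small ribosomal subunit, was at 72.8 and 70.5 CPM with GapmeR1, 456 and 427 CPM with medium, and 474, 374 and 344 CPM with NTC. It was left at 17.3% of its control mean (log2 fold change -2.53, SE 0.131, adjusted p = 6.46e-08), while it was the single lower gene among 81 cytosolic ribosomal proteins tested, whose median log2 fold change was 0.07. RPS25 has copies among processed pseudogenes, so its count is uncertain. GNL3, a nucleolar GTPase of ribosome assembly also called nucleostemin, fell by 1.00 (SE 0.0854, adjusted p = 4.45e-06), and WARS1, the tryptophan tRNA synthetase, by 1.46 (SE 0.136, adjusted p = 1.08e-05).

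Loss was most frequent among genes that span much of the genome. A gene's span is its distance from annotated start to annotated end. Of 155 tested genes over 500 kb, 90 (58.1%) were lower and 2 were higher, with a median log2 fold change of -0.79. From 200 to 500 kb, 303 of 760 genes (39.9%) were lower, and from 50 to 200 kb, 510 of 3883 (13.1%). Of genes from 10 to 50 kb 6.97% were lower, and of those under 10 kb 5.30%, against 10.2% of all genes. Protein-coding genes alone showed the same order, with 61.6% of 138 genes over 500 kb and 4.89% of those under 10 kb lower. The share of higher genes was 9.76% from 50 to 200 kb and 1.29% over 500 kb. Median spans were 69.9 kb for lower genes, 80.4 kb for those at least 2-fold lower, 33.1 kb for higher genes and 22.3 kb for genes that did not change. The same contrast with the 3 GapmeR2 samples as reference left 59.1% of the genes over 500 kb and 4.77% of those under 10 kb lower. Across the alternatives the number of lower genes over 500 kb ran from 68 to 110, and without either GapmeR1 library 178 of those from 200 to 500 kb were lower. Spans, expression levels and sequence content go together across genes, and their separate parts were not tested.

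**Figure D2:**
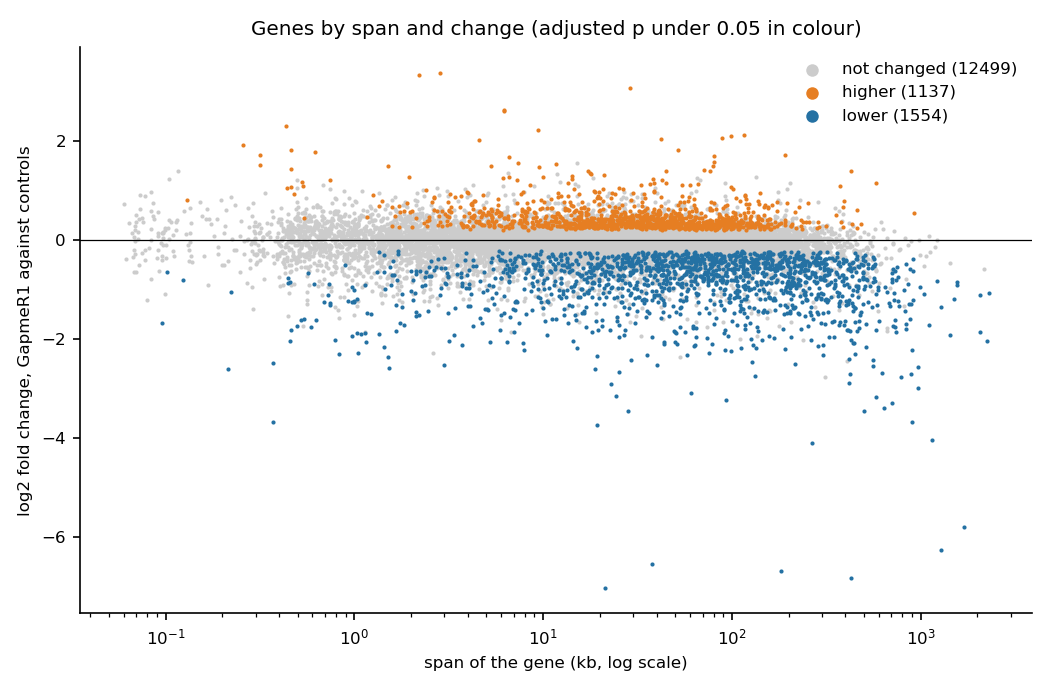
Log2 fold change of GapmeR1 against the controls (vertical axis) by gene span in kb (horizontal axis, log scale), 1 point for each tested gene with an annotated span, with 12499 genes not changed, 1137 higher and 1554 lower in separate colours. Genes of under 50 kb lie on both sides of 0, while most coloured points over 200 kb lie below it.

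Lower genes more often held a stretch that can pair with GapmeR1. For each gene the longest run of bases was found that pairs with the oligonucleotide without a mismatch, anywhere from the gene's start to its end, introns included and on the gene's own strand. Runs of 13 or more bases occurred in 8 tested genes, the target included, and all 8 were lower. The 7 other sites are printed 5′ to 3′ on the strand of the gene, with the longest paired run in capitals.
CCDC88C: tcATCCGCACAGAGCg
UNK: aatTCCGCACAGAGCA
MVB12B: gctTCCGCACAGAGCA
KALRN: CAATCCGCACAGAtta
PHF14: aagTCCGCACAGAGCA
MGMT: gAATCCGCACAGAGCt
DCP1B: gAATCCGCACAGAGCc
Positions in a site are counted from 1 at its 5′ end, with the base of the target site first. The site in CCDC88C (exon, minus strand, chr14:91271790-91271805) differed by C1T, A2C and A16G. That in UNK (exon, plus strand, chr17:75809771-75809786) differed by C1A and A3T, and that in MVB12B (exon, plus strand, chr9:126503187-126503202) by C1G, A2C and A3T. The other 4 lay in introns: KALRN (plus strand, chr3:124373461-124373476; G14T and C15T), PHF14 (plus strand, chr7:10995073-10995088; C1A and A3G), MGMT (plus strand, chr10:129705933-129705948; C1G and A16T) and DCP1B (minus strand, chr12:1972989-1973004; C1G and A16C).

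The 7 genes with these sites fell by 1.36-fold to 2.75-fold. CCDC88C, which modulates Wnt signalling, was at 35.9 and 37.9 CPM with GapmeR1, 96.0 and 107 CPM with medium, and 87.7, 104 and 115 CPM with NTC (log2 fold change -1.46, SE 0.106, adjusted p = 1.09e-06). UNK, an RNA-binding zinc finger protein, was at 34.1 and 34.0 CPM, against 62.0 and 68.1 CPM with medium and 60.5, 67.0 and 57.2 CPM with NTC (log2 fold change -0.88, SE 0.0884, adjusted p = 1.84e-05). MVB12B, a subunit of the endosomal sorting machinery, was at 3.98 and 3.94 CPM, against 8.23 to 11.2 CPM in the controls (log2 fold change -1.31, adjusted p = 7.33e-05). None of these groups overlapped, nor did those of the 4 genes with an intronic site. KALRN, a guanine nucleotide exchange factor, fell by 1.34 on the log2 scale (adjusted p = 3.39e-05), PHF14, a chromatin reader, by 0.92 (adjusted p = 8.95e-06), and MGMT, a DNA repair enzyme, by 0.78 (adjusted p = 0.0012). DCP1B, part of the mRNA decapping machinery, fell by 0.44 (adjusted p = 0.0122), a call lost without either GapmeR1 library. Of the 8 genes, 7 stayed lower on unstranded counts and 6 without either GapmeR1 library.

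Shorter runs were examined after these results were seen, and are given as a description. Lower were 6.59% of the 13285 genes with no run of 10 bases, 34.3% of the 1722 genes with a longest run of 10, 42.4% of 139 with 11 and 55.6% of 36 with 12. Long genes hold more of any sequence, so the shares were also taken within span. Under 50 kb they were 5.33% of 9877 genes without such a run, 23.01% of 465 with a run of 10, and 32.5% of 40 with 11. From 50 to 200 kb they were 8.12%, 28.9% and 38.2%, and over 200 kb 26.8%, 54.6% of 469 genes and 56.8% of 44. The order of the shares was therefore the same in each span class. The NTC sequence, searched in the same way over the same fold changes, gave 6.25% of 10210 genes under 50 kb with no run of 10, 6.37% of 157 with one of 10, and 13.6% of 22 with a run of 11. From 50 to 200 kb its shares were 13.1%, 13.5% and 12.96%, and over 200 kb 43.4% of 654 genes, 39.7% of 194 and 45% of 60. Under 50 kb the 7 other targeting sequences, which the GapmeR1 samples did not receive, gave 4.96% to 10.02% with a run of 10. With a run of 11 they gave 5.11% to 11.1%. Some climbed, by less than GapmeR1: lnc-RTN4R-1 GapmeR2 gave 6.06%, 7.58% and 11.1% under 50 kb. From 50 to 200 kb lnc-ASTN1-1 GapmeR1 gave 10.99%, 13.8% and 16.4%. Others did not, such as lnc-ASTN1-1 GapmeR2 with 6.38%, 4.96% and 5.11% under 50 kb. With the GapmeR2 samples in place of the controls, 4.69% of the genes under 50 kb with no GapmeR1 run of 10 and 21.2% of those with a run of 10 were lower, as were 17.5% of those with a run of 11. Of the genes with a run of 10 or more, 3.15% were higher, against 8.11% of the others.

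**Figure D3:**
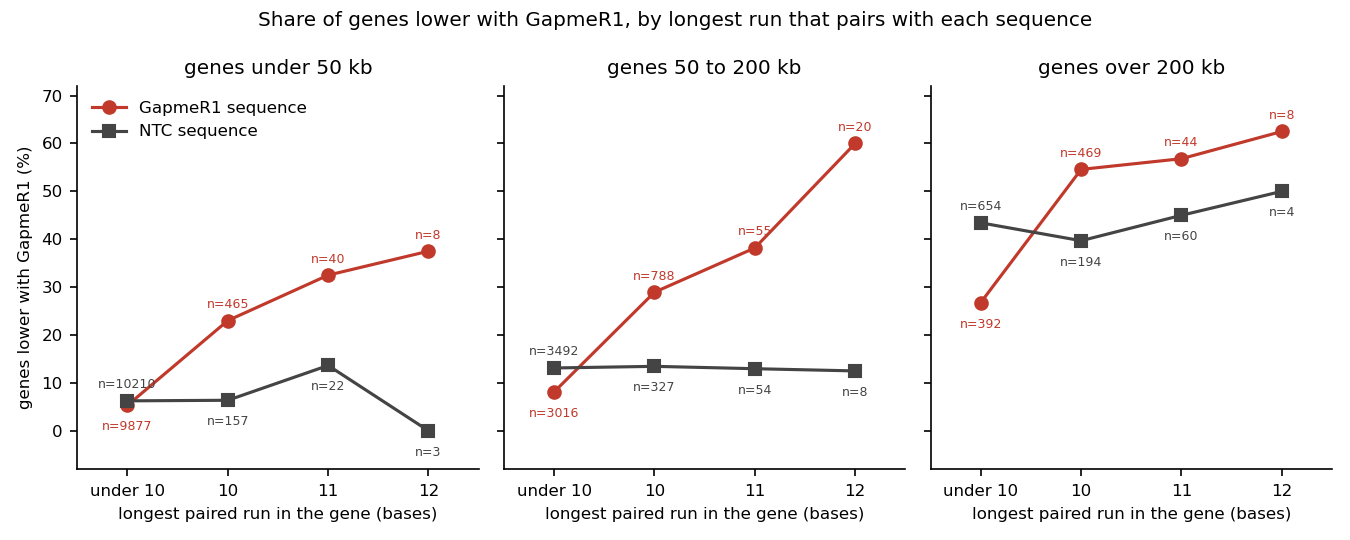
Share of tested genes that were lower with GapmeR1 (vertical axis, percent) by the longest run of bases in the gene that pairs with the GapmeR1 or with the NTC sequence (horizontal axis), in 3 classes of gene span, with the number of genes beside each point. The GapmeR1 shares climb from runs under 10 to runs of 10 and 11 in each class, while the NTC shares under 50 kb are 6.25%, 6.37% and 13.6%, the last over 22 genes, and those over 200 kb 43.4%, 39.7% and 45%.

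The commonest of these stretches was GCACAGAGCA, the 10 bases in capitals in the target site above, which pair with the 5′ end of GapmeR1. It occurred in 1528 tested genes, of which 38.4% were lower. The 6 other stretches of 10 bases in the site occurred in 36 to 230 genes each, of which 31.3% to 44.3% were lower over all spans. Under 50 kb their shares ran from 11.1% of 36 genes to 37.5% of 8. From 50 to 200 kb they ran from 7.14% of 14 genes to 46.4% of 110, and over 200 kb from 51.6% to 61.2%. For the stretches that pair with the NTC sequence the shares over all spans ran from 20.7% to 41.2%, the last over 17 genes. Over all spans the share climbed with the number of stretches a gene held, from 30.6% with 1 to 39.6% with 2 and 62.4% of 205 genes with 3 or more. Overlapping stretches were counted apart, so a run of 11 bases counts as 2 stretches and a run of 12 as 3. The number is therefore not one of separate sites. For the NTC sequence the shares over all spans were 18.3%, 28.8% and 28.8% of 59 genes. Within span, the shares for 1, 2 and 3 or more were 27.02%, 36.1% and 52.9% from 50 to 200 kb. Over 200 kb they were 50.9%, 50% and 69.4%, with no climb from 1 to 2, and under 50 kb 23.3%, 26.7% of 60 genes and 46.2% of 13. A run of 10 or more lay in an exon of 328 genes, of which 41.2% were lower, and outside exons only in 1577 genes, of which 34.4% were lower. Among the genes described above, AGAP1 and MCM3AP held an intronic run of 11, ADARB2 an intronic run of 12, and TENM4, SIPA1L1, SDK1, PLCB1, GMDS and NUP43 a run of 10. LINC02334, GNL3 and WARS1 held a run of 10 in an exon. No run of 10 was found in IGSF10, RPS25 or ENSG00000254350. In all, 678 of 1554 lower genes with an annotated sequence (43.6%) held a run of 10 or more, as did 5.28% of the higher genes and 12.5% of the 15190 genes searched, and 876 lower genes (56.4%) held none. The number of lower genes with such a run was 920 under the replicate block, 407 without GapmeR1 replicate 1 and 409 without replicate 2. Whether pairing with GapmeR1 lowered any of these RNAs was not tested.

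The genes that rose furthest included regulators of lymphocyte signalling and of late B-cell stages. TBC1D10C (carabin), an inhibitor of calcineurin and Ras, was at 15.1 and 18.5 CPM with GapmeR1, 2.20 and 1.92 CPM with medium, and 3.28, 2.14 and 4.01 CPM with NTC, 6.21-fold higher (log2 fold change 2.63, SE 0.212, adjusted p = 2.78e-06). PRDM1 (Blimp-1), the transcription factor of plasma cells, was at 7.79 and 6.37 CPM, against 1.51 and 0.438 CPM with medium and 1.75, 1.63 and 2.82 CPM with NTC (log2 fold change 2.12, SE 0.349, adjusted p = 0.00144). Both GapmeR1 samples lay above all controls in both genes, although the PRDM1 level stayed low. GBP4, an interferon-inducible GTPase, was at 121 and 131 CPM, against 47.9 and 55.9 CPM with medium and 49.2, 48.0 and 47.3 CPM with NTC (log2 fold change 1.35, SE 0.0789, adjusted p = 2e-07). The groups were well apart for GBP4, and its GapmeR2 samples, at 52.1 to 53.8 CPM, lay within the range of the controls. GIMAP4, a GTPase of lymphocyte survival, was 3.22-fold higher, ADA2, a secreted adenosine deaminase, 2.81-fold, HGF, the hepatocyte growth factor, 2.66-fold, and PSD4, an activator of Arf6, 3.53-fold. ENDOD1, a putative endonuclease, rose from between 62.3 and 69.6 CPM to 141 and 158 CPM. VASN rose 2.89-fold, from 2.82 CPM at most in the controls to 7.42 and 3.52 CPM, but lost its call without GapmeR1 replicate 1. The largest gains were smaller than the largest losses.

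Lambda light chain RNA rose. Of 9 immunoglobulin lambda segments tested, 8 (88.9%) were higher and none lower, with a median log2 fold change of 1.44, against 0.0037 over all genes. Over all genes tested 7.41% were higher and 10.2% lower, or 18.4% and 18% with the replicate block, and the counts of the lists that follow stand beside these shares. The study named lambda segments from these same samples, so the list is not independent evidence of its direction. IGLC3, a constant segment, was at 219 and 220.4 CPM with GapmeR1, 86.9 and 83.5 CPM with medium, and 75.6, 83.5 and 77.7 CPM with NTC (log2 fold change 1.44, SE 0.0697, adjusted p = 3.85e-08). GapmeR2 samples held 110.4, 110.2 and 101 CPM, between the 2 other sets, and GapmeR1 exceeded them by 1.04 on the log2 scale (adjusted p = 3.5e-05). IGLV3-21, a variable segment, was at 191 and 195 CPM, against 78.0 and 76.2 CPM with medium and 64.8, 71.4 and 52.0 CPM with NTC (log2 fold change 1.5, adjusted p = 2.4e-06). In both segments all GapmeR1 samples were above all control and GapmeR2 samples. IGLC6 was 3.31-fold and IGLV2-23 3.44-fold higher, and IGLC2, at 1.19 and 1.61 CPM, 3.51-fold, a call lost without GapmeR1 replicate 2. The segments are near copies of each other and reads that fit several were not counted, so how the reads divide among them is uncertain. Of 7 heavy chain segments 1 was higher and 1 lower, and the 1 kappa segment tested was higher, a call lost without either GapmeR1 library. With the block 3 heavy chain segments were higher. Without GapmeR1 replicate 1 or 2, 7 and 6 lambda segments kept passing.

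Among transcription factors of the B lineage the share of higher ones was above that of all genes, and the share of lower ones was near that of all genes. Of 34 tested, 9 (26.5%) were higher and 4 (11.8%) lower, beside 7.41% and 10.2%, with a median log2 fold change of 0.06. IRF4, which acts with PRDM1 in plasma cells and opens light chain genes in pre-B cells, was at 240.1 and 234 CPM with GapmeR1, 124 and 111 CPM with medium, and 117, 113 and 143 CPM with NTC (log2 fold change 0.97, SE 0.0905, adjusted p = 9.32e-06). SOX4, a factor of early B-cell survival, was at 498 and 495 CPM against 302 to 334 CPM in the controls (log2 fold change 0.65, adjusted p = 2.63e-05). Both stood clear of every control sample. POU2F2 (Oct-2) was 0.80 higher on the log2 scale, a call lost without GapmeR1 replicate 2. ETV6, the repressor whose start is part of the fusion gene in these cells, was at 15.4 and 14.3 CPM, against 23.2 and 24.4 CPM with medium and 22.5, 25.8 and 25.9 CPM with NTC (log2 fold change -0.70, SE 0.100, adjusted p = 0.00032). The study describes REH cells as having lost their other copy of ETV6. ZEB1 fell by 0.90 (SE 0.103, adjusted p = 5.4e-05) and EBF1, a founding factor of the B lineage, by 0.41 (SE 0.0786, adjusted p = 0.00292), the latter call lost without GapmeR1 replicate 1. Leaving out GapmeR1 replicate 1 left 5 higher and 2 lower factors, replicate 2 left 4 and 4, and the block gave 14 and 9.

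Surface antigens changed in both directions. Of 28 antigens tested, 7 (25%) were higher and 5 (17.9%) lower, beside 7.41% and 10.2% of all genes. Without GapmeR1 replicate 1 or 2 these were 4 and 3, or 5 and 2, and with the block 12 and 7. The tetraspanin CD9 was at 157 and 127 CPM against 56.9 to 84.9 CPM (log2 fold change 1.00, adjusted p = 0.000312), CD24, a marker of B-cell precursors, at 493 and 598 CPM against 279.8 to 375 CPM (0.71, adjusted p = 0.000551), and the fibronectin receptor subunit ITGA5 at 75.3 and 88.9 CPM against 36.4 to 49.5 CPM (0.93, adjusted p = 5.33e-05). CD53, another tetraspanin, fell to 92.8 and 91.1 CPM from 165 to 181 CPM (log2 fold change -0.90, adjusted p = 3.12e-06), and CD38, an enzyme and activation marker, to 75.0 and 74.7 CPM from 109 to 129 CPM (-0.65, adjusted p = 0.000104). All 5 of these genes had no overlap between the groups. In the pre-B receptor pathway the shares were near those of all genes. Of its 26 genes 2 (7.69%) were higher, INPP5D (SHIP1), a brake on the pathway (log2 fold change 0.67, adjusted p = 5.02e-05), and VAV1, an exchange factor (0.41, adjusted p = 0.00122), and 4 (15.4%) were lower, among them VPREB3 (-0.80, adjusted p = 0.000225), which assists receptor assembly, and the kinase gene PRKCB (-0.70, adjusted p = 0.000228). With the block 7 were higher and 6 lower, and leaving out GapmeR1 replicate 2 left 2 lower. Of 13 genes of V(D)J recombination 2 (15.4%) were higher and 1 (7.69%) lower, and with the block 5 and 2. RAG1 was at 2035 and 2196 CPM against 1501 to 1802 CPM (log2 fold change 0.40, adjusted p = 0.00785), a call lost without GapmeR1 replicate 2. XRCC5 (Ku80), which joins broken DNA ends, fell to 445 and 459.6 CPM from 657 to 850.3 CPM (log2 fold change -0.80, adjusted p = 0.000142). Of 16 MHC class II genes 3 (18.8%) were lower and none higher (with the block, 3 and 1), among them HLA-DRB1 (-0.45) and HLA-DRB5 (-0.51), near copies whose counts are uncertain.

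Many cell cycle genes were higher by small amounts. Of 38 mitosis genes tested, 21 (55.3%) were higher and 1 (2.63%) lower, beside 7.41% and 10.2% of all genes, with a median log2 fold change of 0.27. KIF20A, a motor of cell division, was at 131 and 127 CPM with GapmeR1, 87.4 and 87.6 CPM with medium, and 91.9, 94.2 and 73.7 CPM with NTC (log2 fold change 0.58, SE 0.0867, adjusted p = 0.000488). BUB1, a spindle checkpoint kinase, was at 238 and 259 CPM against 191 CPM at most in the controls (log2 fold change 0.51, adjusted p = 0.00135). Both were above all controls, while CDC25B, a phosphatase that starts mitosis, fell by 0.48, a call lost without GapmeR1 replicate 1. Of 43 DNA replication genes, 14 (32.6%) were higher and none lower, with a median of 0.23: E2F2, an activator of S phase genes, was at 181 and 176 CPM against 109 to 133 CPM (log2 fold change 0.57, adjusted p = 0.000292). These counts depended on the design more than those of the largest changes. Without GapmeR1 replicate 1 or 2 the mitosis count was 4 in either case and the replication count 3 and 2, while the block gave 31 higher and 2 lower mitosis genes and 26 higher and 5 lower replication genes.

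Sensors of nucleic acids were of interest because the cells were given an oligonucleotide. Of 24 tested, 6 (25%) were higher and none lower, beside 7.41% and 10.2% of all genes (without GapmeR1 replicate 1 or 2, 4 and 3; with the block, 11). STING1, the adaptor that answers cytosolic DNA, was at 26.5 and 22.7 CPM with GapmeR1, 7.37 and 5.37 CPM with medium, 8.65, 9.05 and 11.8 CPM with NTC, and 10.4, 9.30 and 13.8 CPM with GapmeR2. It was 2.93-fold higher than in the controls (log2 fold change 1.55, SE 0.197, adjusted p = 0.000166) and 1.14 higher on the log2 scale than with GapmeR2 (adjusted p = 0.0014), with no overlap. TLR7, an endosomal sensor of single-stranded RNA, was 0.96 higher on the log2 scale (adjusted p = 0.00279; not passing without GapmeR1 replicate 2), and IFI16, a DNA sensor, 0.44 (adjusted p = 0.00193). Among interferon-stimulated genes 5 of 36 (13.9%) were higher and 2 (5.56%) lower, and their median log2 fold change was -0.01. The higher ones included IFIT3 (0.55) and OAS2 (0.36), the first lost without GapmeR1 replicate 1 and the second without replicate 2. Leaving out either library left 2 higher and none lower, and the block gave 9 and 5. Of 22 genes of cytokine receptors and JAK-STAT signalling 5 (22.7%) were higher and none lower, with SOCS2, a feedback inhibitor, at 0.61 and IL7R, the receptor for interleukin-7, at 0.46 on the log2 scale, both lost without GapmeR1 replicate 2. Their count was 3 without GapmeR1 replicate 1, 1 without replicate 2 and 10 with the block. Of 23 immediate early genes 5 (21.7%) were higher and none lower, among them DUSP1, a phosphatase that ends MAP kinase signals (0.49, adjusted p = 0.001), and 2 were higher without either GapmeR1 library. NF-kappaB targets had 3 higher and 3 lower of 22 (13.6% each), which fell to 0 and 1 without GapmeR1 replicate 1 and to 1 and 1 without replicate 2, while the block gave 5 and 6. Among them LTB (lymphotoxin beta) was 2.04-fold lower.

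Of 14 genes of fatty acid synthesis, 6 (42.9%) were lower and none higher, beside 10.2% and 7.41% of all genes. ELOVL6, which lengthens fatty acids, was at 9.16 and 9.17 CPM with GapmeR1, 24.8 and 27.1 CPM with medium, and 23.4, 26.3 and 24.4 CPM with NTC (log2 fold change -1.45, SE 0.106, adjusted p = 1.12e-06). It held no run of 10 and its groups were far apart. Of the 6 lower genes, 3 held a GapmeR1 run of 10 or more, as did 4 of the 14. ACACA, the enzyme that commits carbon to fatty acids, fell by 0.57 and ACSS2, which makes acetyl-CoA, by 0.42, the first lost without GapmeR1 replicate 1 and the second without replicate 2. Without these libraries 3 and 2 of the 14 were lower. Cholesterol synthesis had 1 higher and 2 lower of 23 (with the block, 2 and 4). Of 193 solute carriers, 28 (14.5%) were lower and 12 (6.22%) higher, shares near the 10.2% and 7.41% of all genes, and 13 of those 28 held a GapmeR1 run of 10, as did 36 of the 193. SLC39A11, a zinc transporter, was 2.07 lower on the log2 scale and SLC43A1, an amino acid carrier, 0.91 lower. Leaving out GapmeR1 replicate 1 left 13 lower and 4 higher, replicate 2 left 11 and 1, and the block gave 46 and 26. Of 25 genes of the integrated stress response, 5 (20%) were lower and 1 higher, but none was lower without GapmeR1 replicate 2, while 7 were without replicate 1 and 10 with the block.

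Receptor-type tyrosine phosphatases are membrane proteins that remove phosphate from tyrosines. Of 12 tested, 4 (33.3%) were lower and none higher: PTPRG (log2 fold change -1.76, adjusted p = 1.2e-07), PTPRM (-1.70, adjusted p = 2.33e-06), PTPRD (-1.07, adjusted p = 9.04e-05) and PTPRF (-0.33, adjusted p = 0.0157). PTPRG spans 736 kb with no run of 10, PTPRM and PTPRD held a run of 10 and PTPRF one of 11. A run of 10 or more was held by 6 of the 12 genes tested, of which 3 were lower. PTPRF lost its call without either GapmeR1 library, and the block gave 7 lower and 2 higher.

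Some families of transcription and RNA handling had more higher than lower genes, a lean that rested on both GapmeR1 libraries. Of 438 zinc finger (ZNF) genes, mostly repressors, 51 (11.6%) were higher and 25 (5.71%) lower, beside 7.41% and 10.2% of all genes. Those that fell furthest, ZNF862 (log2 fold change -2.42) and ZNF75D (-1.93), held a run of 10. Runs of 10 or more were held by 30 of the 438 genes, of which 9 were lower and 1 higher. Without GapmeR1 replicate 1, 11 were higher and 13 lower, without replicate 2, 14 and 13, and with the block 124 and 42. Of 61 chromatin regulators 12 (19.7%) were higher and 7 (11.5%) lower. KMT2A, the histone methyltransferase MLL1, was at 323 and 364 CPM with GapmeR1, 209 and 229 CPM with medium, and 196, 226 and 244 CPM with NTC (log2 fold change 0.65, SE 0.089, adjusted p = 0.000251). SETD2, which methylates histones over active genes, was 0.51 higher (adjusted p = 0.000296), while SMYD3 (-1.22) and HDAC4 (-0.92), each over 200 kb long with a run of 10, fell. Among the 61 regulators 15 held a run of 10 or more, of which 5 were lower and 1 higher. Without GapmeR1 replicate 1, 3 regulators were higher and 4 lower, without replicate 2, 3 and 3, and with the block 30 and 8. Of 46 splicing regulators 8 (17.4%) were higher and none lower (TRA2A at 0.44, lost without GapmeR1 replicate 1), with 1 and 2 higher without GapmeR1 replicate 1 and 2, and 21 with the block.

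**Figure D4:**
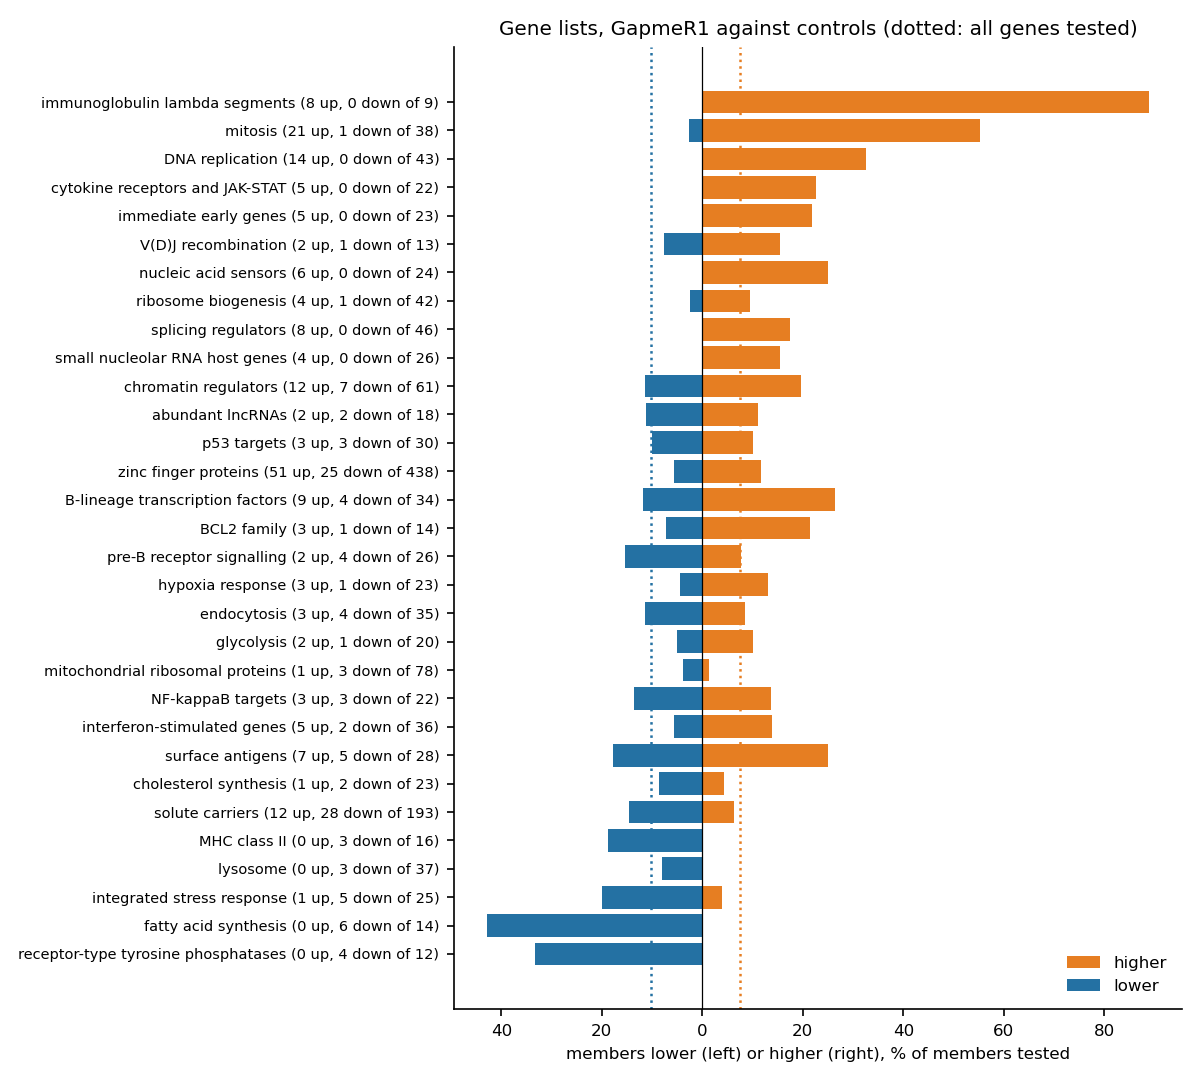
Share of the tested genes of each list that were higher (right) or lower (left) with GapmeR1 than in the controls (horizontal axis, percent), for the lists reported here with at least 9 genes tested and 3 changed, ordered by their median log2 fold change. Dotted lines mark the shares over all genes, 7.41% higher and 10.2% lower, and the immunoglobulin lambda, mitosis and DNA replication lists exceed the first by the most.

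Several groups had shares of calls near or below those of all genes, which were 7.41% higher and 10.2% lower. With the replicate block, where the shares of all genes were 18.4% and 18%, these groups had more calls. None of 26 mitochondrially encoded genes and none of 20 heat shock genes passed in edgeR or DESeq2, with 0 and 4 of them at an unadjusted edgeR p under 0.05. With the block 2 mitochondrially encoded genes were lower and 4 heat shock genes higher, and 2 heat shock genes were higher in 1 fit of all samples. A count of 1 higher heat shock gene came with NTC only or medium only as controls. The same count came with control replicates 1 and 2 only, with no filter and without medium replicate 2. Of 81 cytosolic ribosomal proteins 1 was higher, RPL36A, a call lost without either GapmeR1 library, and 1 lower, RPS25 (with the block, 5 and 3). Of 78 nuclear-encoded respiratory chain genes 2 were lower and none higher. This count depended on the controls and the design. It was 28 lower with the block and 18 with control replicates 1 and 2 only. With medium only as controls it was 19, and with NTC only it was 1. Of 78 mitochondrial ribosomal proteins 3 were lower and 1 higher (with the block, 11 and 3). The unfolded protein response had 2 of 23 genes higher and none lower (with the block, 4 and 3), and the proteasome 2 of 41 and none (with the block, 8 and 6). Of 30 p53 targets 3 were higher and 3 lower (10% each), and 13 and 4 with the block. FAS, the death receptor, was 2.78-fold lower at 0.641 and 0.622 CPM. Genes for RNase H and other oligonucleotide handling proteins had 2 of 22 higher and none lower, none of either without either GapmeR1 library, and 11 and 1 with the block.

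GapmeR1 and GapmeR2, which pair with adjacent bases of the same lncRNA, left different transcriptomes. Tested directly, 1994 of 15376 genes (13%) differed between them, 612 (3.98%) higher and 1382 (8.99%) lower with GapmeR1. Of the genes lower with GapmeR1 than in the controls, 1131 of the 1555 tested were also lower than with GapmeR2, with a median log2 fold change of -0.70. Of those at least 2-fold lower, 413 of 480 were, with a median of -1.46. Of the higher genes, 543 of 1142 were also higher than with GapmeR2, with a median of 0.34. The same GapmeR1 samples enter both comparisons, so these counts describe where the GapmeR2 samples lay and are not a repeat of the result. SIPA1L1 (log2 fold change -2.69), IGSF10 (-2.30), RPS25 (-2.43) and CCDC88C (-1.49) differed from GapmeR2 by about as much as from the controls, and so did GBP4 (1.26). IGLC2 (0.53, adjusted p = 0.274) and IER5, an immediate early gene (0.27, adjusted p = 0.171), did not pass against GapmeR2. The count was 780 without GapmeR1 replicate 1, 623 without GapmeR1 replicate 2, 1191 without GapmeR2 replicate 1 and 2918 (19.1%) with replicates 1 and 2 only. With the block, which left 1 residual degree of freedom, it was 6421 (41.8%).

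GapmeR1 was also set against the mean of the 7 other targeting GapmeR groups (20 samples), each group weighted alike. Of 16268 genes 3745 (23%) differed, 1630 (10%) higher and 2115 (13%) lower. Of the genes at least 2-fold lower than in the controls 468 of 496 were also lower here, and of those at least 2-fold higher 61 of 70 were higher. TENM4 (log2 fold change -2.40), SIPA1L1 (-2.62), RPS25 (-2.50) and IGLC3 (1.36) were among them. The contrast was smaller for ZEB1 (-0.35, adjusted p = 0.0301) and SMYD3 (-0.50, adjusted p = 0.000295) than against the controls, where they were -0.90 and -1.22. The targeted lncRNA itself was 3.90-fold lower than in these samples (adjusted p = 0.00934), GapmeR2 included. Without GapmeR1 replicate 1 or 2 the count was 2050 and 1557, and with the block 6045 (37.2%).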

How the data were processed

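RNA was sequenced from REH cells treated as described above. The authors aligned reads to hg38 with STAR, per the submitters' processing notes, and deposited its raw counts of uniquely mapped reads per gene, with no normalisation and 1 column for each strand setting. The annotation release behind the counts is not given in the sources used here. The labels describe ribodepleted RNA in a stranded protocol and the methods poly-A selection, which bears on RNAs without a poly-A tail. Column 4, the strand with 95.2% to 95.4% of the reads of both strands, was used. Of 60619 identifiers 56434 matched GENCODE 44 (GRCh38), which gave symbols, types, spans and exons. The sequences of the oligonucleotides came from the supplementary tables of the study and those of sites from the reference genome.

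The function filterByExpr chose the genes to test (at least 10 counts, total at least 15), to which the targets were always added. GapmeR1 was compared with the 5 controls and with GapmeR2, each on its own samples with no covariate. The comparison with the other targeting GapmeRs was a contrast within a fit of all 27 samples, also with no covariate. It set GapmeR1 against the mean of the 7 other targeting groups, each group weighted alike. All used edgeR (4.0.16) quasi-likelihood F tests in R (4.3.3) after TMM normalisation. P-values were adjusted by Benjamini-Hochberg over all genes tested, and changed means an adjusted p under 0.05. Standard errors came from the F statistics and CPM from TMM library sizes (log2 CPM with a prior count of 2). The fits were tested on simulated counts. Totals of 16028895 to 22542504 counts per library leave a scarce lncRNA such as the target with a few reads.

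The methods place the replicates of a treatment on different days, and that the same number in different groups marks the same day was assumed from this. Deviations from group means over 13548 genes correlated by 0.396 on average between samples of the same number in different groups (109 pairs, lowest -0.0958) and by -0.194 between different numbers. The deviations of a group sum to 0, so the negative value follows in part from the positive one and is not separate evidence. Among the groups compared here, over replicates 1 and 2, the same-number correlations were 0.353 (GapmeR1 and medium), 0.275 (GapmeR1 and NTC) and 0.418 (medium and NTC). The replicate block was therefore fitted as an alternative, and its counts stand beside the main ones where it moved them by over 1.5 times. Whether cultures of different days were otherwise independent is not stated, so p-values measure the spread between these samples.

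Genes were named by a rule: the target and tested genes within 500 kb, the other targets, the 12 largest changes each way with a mean of at least 5 CPM and no overlap, the 5 smallest adjusted p-values each way, and up to 4 changed members of each of 46 gene lists. Other changed list members and the genes with paired runs were named after their values were seen. A few items are not reported here. The comparisons, members and lists were chosen with earlier results of these data known. A paired run is an unbroken stretch of a gene's genomic sequence, on its own strand, complementary to the oligonucleotide. The alternatives tried were the block, unstranded counts, NTC or medium only as controls, control replicates 1 and 2 only, no filter, a filter of 10 counts in each library, RLE in place of TMM, DESeq2 (1.42.0), 1 fit of all 27 samples, and each sample left out. With 1 GapmeR1 sample left, that sample was taken to vary like the others.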

Additional observations from a re-analysis of the deposited data

Results flagged for a closer look

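The effect of GapmeR1 differed from that of GapmeR2, although both were designed against lnc-NKX2-3-1. By a direct edgeR test between their samples, 1994 genes differed. The target itself did not pass that test, and the genes furthest apart included SIPA1L1, IGSF10 and MCM3AP, which GapmeR2 left at 85.3 to 89.7, 227 to 255 and 244 to 255 CPM. What separates these oligonucleotides was not tested.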

How the results depend on the processing

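The replicate block gave 5611 changed genes against the controls (5598 with control replicates 1 and 2 only), 6421 against GapmeR2, 6045 against the other targeting GapmeRs and 231 between NTC and medium. Leaving out 1 sample at a time moved these counts between 1002 and 3618, 623 and 2918, 1557 and 2050, and 0 and 18. The log2 fold change of lnc-NKX2-3-1 (ENSG00000228778) lay between -3.71 and -2.02 when 1 sample was left out and was -0.98 on unstranded counts, where it did not pass. Fold changes that were not called and turned sign were those of ABCC2, from -0.297 to 0.042 with 1 sample left out, and NETO1-DT, from -0.211 to 0.0547, and the cause was not tested. The other alternatives kept the count of changed genes within 1.5 times. None of the genes changed against the controls took the opposite sign under any alternative, except 3 higher and 5 lower genes on unstranded counts. The block ended no call of a gene named here and added those of NKX2-3, COX15 and LINC02891. With 2 GapmeR1 samples, a call of a small difference depends on each of them, and at these depths genes under about 1 CPM, such as lnc-NKX2-3-1 and NKX2-3, rest on a few reads.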
